A study of Mus musculus with 6 samples.

Results

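The 46 genes described here encode the enzymes and transporters that take up glucose, break it down to pyruvate and lactate, divert it into the pentose phosphate pathway and burn it in the tricarboxylic acid (TCA) cycle. They were chosen by name, and each of the 46 was found in 1 row of the 36699 rows of the authors' deposited table. Expression had been measured by RNA sequencing of polyadenylated RNA from mouse embryoid bodies, the floating aggregates in which embryonic stem cells start to differentiate. The cells were A2Lox.cre embryonic stem cells with a Flag-tagged Lef1 transgene that doxycycline (Dox) switches on. In the plus_Dox group (3 libraries) Dox was present for the last 24 h before harvest on day 3. In the minus_Dox group (3 libraries) the same cells were harvested on day 3 without Dox. Both groups had been expanded on mouse embryonic fibroblasts, which were removed before aggregation. Lef1 is a transcription factor of the Tcf/Lef family, through which Wnt signals and beta-catenin reach DNA. The comparison asked which genes respond to Lef1. The labels name no group of Dox-treated cells without the transgene, so effects of Dox itself, a drug known to inhibit mitochondrial translation, and of Lef1 cannot be told apart.

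Glycolysis splits glucose into pyruvate in the cytosol and yields ATP without oxygen, and lactate dehydrogenase turns pyruvate into lactate when it is not oxidised. The pentose phosphate pathway has an oxidative branch that makes NADPH and a non-oxidative branch that makes ribose for nucleotides. The TCA cycle runs in mitochondria on acetyl-CoA made by pyruvate dehydrogenase. Pluripotent stem cells are known for high glycolysis, with glucose carbon passed largely to lactate.

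The authors' deposited table lists levels in FPKM, 1 for each gene in either group (sequenced fragments scaled to transcript length and library size). Values of single libraries were not analysed here, and the depth behind each value is unknown. The standard error (SE) and 95% interval of a log2 fold (plus_Dox over minus_Dox) were derived from the authors' test statistic, so they rest on the authors' model of the spread between libraries. No label tells if libraries of a group were separate cultures, and that spread may be technical. A gene was called where the authors' q-value was 0.05 or less. In the authors' deposited table Lef1 stood at 51.0 FPKM in plus_Dox and 7.56 FPKM in minus_Dox, with a log2 fold of 2.75 (SE 0.19) and q listed as 0. Of 11 embryonic stem cell markers, all tested, 4 rose (36.4%) and 1 fell (9.09%), against 8.98% and 3.22% of all tested rows. Among them the authors' deposited table gives log2 folds of 2.61 for Tdgf1 and 1.94 for Nanog, which rose, and -0.86 for Sox2, which fell (q = 2.66e-05). Pou5f1, the gene of the pluripotency factor Oct4, had 1510 FPKM in plus_Dox and 820 FPKM in minus_Dox in the authors' deposited table and did not pass (q = 0.055). With the shift subtraction or the trend removal described below, 2 of the 11 were higher (Tdgf1 and Nanog, 18.2%) and 1 lower (Sox2, 9.09%). Over all rows 3.47% were higher and 6.1% lower with the shift subtracted, and 1.22% and 0.96% after the trend removal. Dppa5a and Utf1, which rose as deposited, lost their call under both. The summed level of 14 tested fibroblast markers was 314 FPKM in plus_Dox and 170 FPKM in minus_Dox in the authors' deposited table. Of the 14, 4 rose (Tagln, Acta2, Vim and Twist1), or 28.6% against 8.98% of all tested rows, and none fell. Tagln, Vim and Acta2 carried most of that sum, while Pdgfra and Dcn, near 1 and 2 FPKM, had log2 folds of -0.51 and -0.48 in the authors' deposited table that did not pass. The collagen genes Col1a1, Col1a2 and Col3a1 were under 2 FPKM in both groups. Their log2 folds of 0.57, 0.28 and 0.36 in the authors' deposited table did not pass, nor did the -0.23 of Pdgfrb. Of the 14 log2 folds, 11 were above 0 and 3 below. After the shift subtraction described below 2 fibroblast markers were higher (14.3%) and 1 lower (Pdgfra, 7.14%), against 3.47% and 6.1% of all rows. After the trend removal only Acta2 was called, as higher (7.14%, against 1.22% of all rows). Neither the fibroblast content nor the part of these markers' cells in the values below was tested.

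Few genes of central carbon metabolism passed the test. Of 43 members that the authors' test covered, 5 rose in plus_Dox, none fell and 38 did not pass. The rises were in Pgls and Taldo1 of the pentose phosphate pathway, Ldhb of lactate metabolism, Mdh2 of the TCA cycle and Pfkm of glycolysis. Among all 18114 tested rows 8.98% rose and 3.22% fell, so the share of rises among the members, 11.6%, was near the background. At an unadjusted p under 0.05 in the same Cuffdiff test, 12 of the 43 tested members were higher and 2 lower in plus_Dox. That is a larger share than the 17.2% of all tested rows that were higher, and a smaller one than the 6.14% lower. Members with a log2 fold above 0 numbered 34, and 9 were below 0. Their median log2 fold was 0.26, and that of the 12240 tested rows with at least 1 FPKM was 0.20, which left 0.06 for the members relative to all genes. When 0.20 was subtracted from every fold and the test repeated over the table, 1 member was higher (Pgls) and 2 were lower (Slc16a1 and Dld), where 3.47% of rows were higher and 6.1% lower. At a q-value of 0.01 only Pgls and Taldo1 passed, with 4.97% of rows rising, and with a minimum of 1.5-fold Pgls, Taldo1 and Ldhb, with 7.38%.

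**Figure D1:**
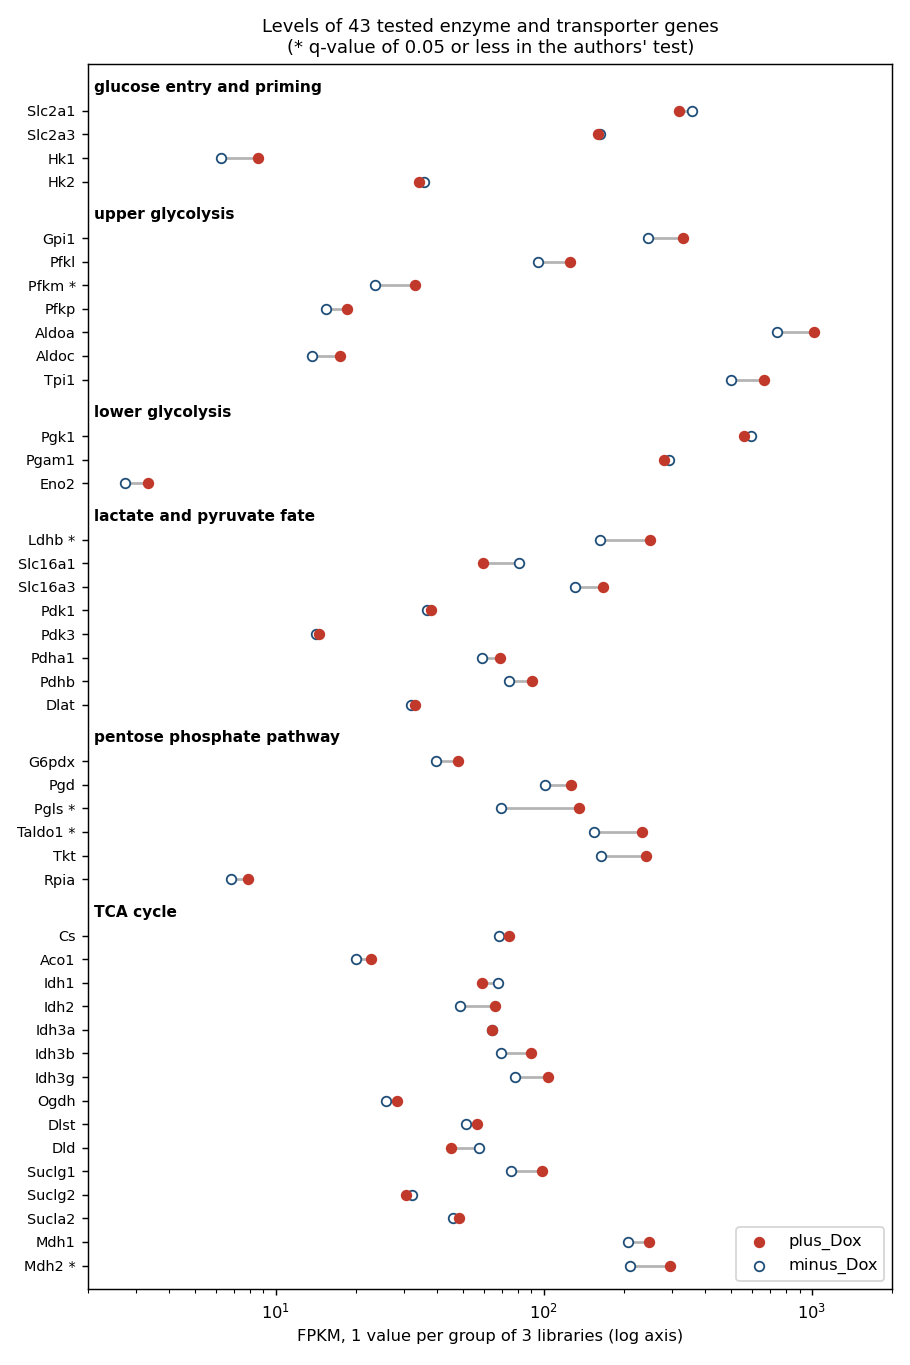
FPKM of each tested member on a log axis, by pathway, in plus_Dox (filled red) and minus_Dox (open blue), with 1 value per group of 3 libraries. The levels span from about 3 FPKM for Eno2 to 1020 and 742 FPKM for Aldoa, and the pairs lie close together beside that range.

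Most members were expressed at high levels. The median level of the 43 tested members was 68.8 FPKM in plus_Dox and 67.8 FPKM in minus_Dox, against 3.67 FPKM in plus_Dox and 3.45 FPKM in minus_Dox over all tested rows in the authors' deposited table. By mean level, 28 of the 43 stood above the 90th percentile of tested rows. The lowest was Eno2, the neuronal form of enolase, with 3.33 FPKM in plus_Dox and 2.75 FPKM in minus_Dox in the authors' deposited table. Gapdh, Eno1 and Ldha could not be compared, because the authors' software marked them as too deep to process. The authors' deposited table lists Gapdh and Eno1 at 0 in both groups, and Ldha at 0 in plus_Dox and 1592 FPKM in minus_Dox. These zeros are failed estimates and not absence, and Pkm2, the pyruvate kinase gene of the last glycolytic step, which is no member, was marked the same way.

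Glucose entry showed no call. Slc2a1, the glucose transporter GLUT1, had 320.1 FPKM in plus_Dox and 356 FPKM in minus_Dox in the authors' deposited table (log2 fold -0.15, 95% interval -0.58 to 0.28, q = 0.80). Slc2a3, the high-affinity transporter GLUT3, had 159 FPKM in plus_Dox and 163 FPKM in minus_Dox in the authors' deposited table (log2 fold -0.03), with a wide SE of 0.56. Of the 2 transporters' summed FPKM, Slc2a1 held 66.8% in plus_Dox and 68.6% in minus_Dox. Hexokinase traps glucose in the cell by phosphorylating it, and its main form here was Hk2. Hk2 had 34.2 FPKM in plus_Dox and 35.6 FPKM in minus_Dox in the authors' deposited table (log2 fold -0.06 with SE 0.30). Hk1 had 8.60 FPKM in plus_Dox and 6.27 FPKM in minus_Dox in the authors' deposited table (log2 fold 0.46 with SE 0.19, q = 0.10). The share of Hk1 in the summed hexokinase FPKM was 20.1% in plus_Dox and 15.0% in minus_Dox. The difference between these hexokinases was not tested.

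In upper glycolysis, the steps from glucose 6-phosphate to the triose phosphates, all 7 members were higher in plus_Dox in the deposited fold and relative to the median of all genes, and 4 of 7 after the trend removal described below. Of the 7, 1 was called as deposited (14.3%), where 8.98% of all tested rows rose. Pfkm, the muscle-type subunit of phosphofructokinase, which commits sugar to glycolysis, rose to 33.1 FPKM in plus_Dox, against 23.4 FPKM in minus_Dox, in the authors' deposited table (1.41-fold, 95% interval 1.10 to 1.81, q = 0.049). The row covers chromosome 15 from 97871660 to 97962878 in mm9, 2.29 times the length of the gene in RefSeq, so it can take in other transcripts. The liver-type subunit gene Pfkl made up most of the phosphofructokinase FPKM, 70.8% in plus_Dox and 71.1% in minus_Dox, and had 125 FPKM in plus_Dox and 95.5 FPKM in minus_Dox in the authors' deposited table (log2 fold 0.39 with SE 0.26, q = 0.42). Pfkp, the platelet-type subunit gene, had 18.4 FPKM in plus_Dox and 15.5 FPKM in minus_Dox in the authors' deposited table, with an SE of 2.82 log2 units that leaves its fold undetermined.

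Aldoa, the main aldolase gene, was the most abundant tested member, at 1020 FPKM in plus_Dox and 742 FPKM in minus_Dox in the authors' deposited table (log2 fold 0.46, 95% interval 0.07 to 0.85, q = 0.12). It held 98.3% of the aldolase FPKM in plus_Dox and 98.2% in minus_Dox. Aldoc, the aldolase known from brain, had 17.4 FPKM in plus_Dox and 13.6 FPKM in minus_Dox in the authors' deposited table (q = 0.54). Gpi1, which converts glucose 6-phosphate to fructose 6-phosphate, had 330.4 FPKM in plus_Dox and 244 FPKM in minus_Dox in the authors' deposited table (log2 fold 0.44 with SE 0.20, q = 0.14). Tpi1, the isomerase of the triose phosphates, had 666 FPKM in plus_Dox and 498 FPKM in minus_Dox in the authors' deposited table (log2 fold 0.42 with SE 0.25, q = 0.31). The 7 log2 folds of upper glycolysis lay between 0.25 and 0.50, a narrow range set against SEs of mostly 0.2 to 0.3.

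In lower glycolysis, 2 of the 3 tested members had a fold below 0, and neither passed. Pgk1, the kinase of the first ATP-yielding step, had 557 FPKM in plus_Dox and 591 FPKM in minus_Dox in the authors' deposited table (log2 fold -0.09, 95% interval -0.44 to 0.27, q = 0.90). Pgam1, the phosphoglycerate mutase gene, had 281 FPKM in plus_Dox and 292 FPKM in minus_Dox in the authors' deposited table (log2 fold -0.06 with SE 0.17, q = 0.95). Eno2 was the third of the 3 tested members, with a log2 fold of 0.28 in the authors' deposited table (SE 0.47). The median log2 fold was 0.42 in upper and -0.06 in lower glycolysis, and the difference between the groups was not tested. Gapdh, Pgk1, Pgam1, Tpi1, Aldoa and Ldha have near-identical processed pseudogenes in mouse, and how the authors' counting divided such reads is not known here.

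**Figure D2:**
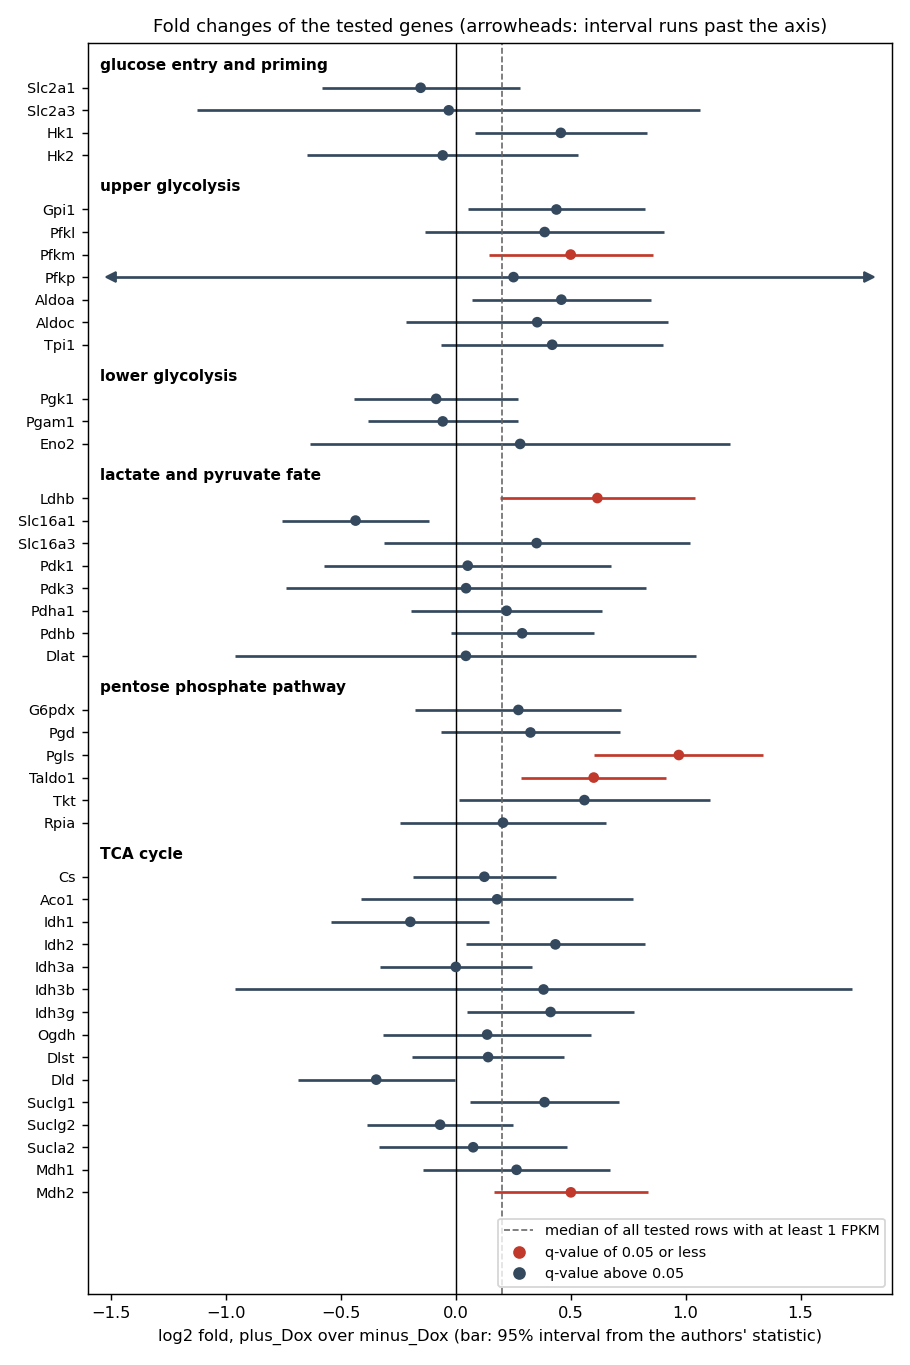
Log2 fold of each tested member, plus_Dox over minus_Dox, with its 95% interval as implied by the authors' test statistic, the 5 called genes in red and a dashed line at 0.20, the median of all tested rows with at least 1 FPKM. Most intervals hold both 0 and the dashed line, and that of Pfkp runs off the axis.

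At the fork between lactate and the TCA cycle, 7 of the 8 tested members had a fold above 0, and Slc16a1 was below. Their median log2 fold was 0.14, where that of all tested rows with at least 1 FPKM was 0.20. Ldhb, the lactate dehydrogenase subunit that favours turning lactate into pyruvate, rose to 249 FPKM in plus_Dox, against 163 FPKM in minus_Dox, in the authors' deposited table (1.53-fold, 95% interval 1.14 to 2.05, q = 0.039). Its partner subunit gene Ldha has no readable value in plus_Dox, so the balance of the subunits cannot be given. Slc16a1, the lactate and pyruvate transporter MCT1, had the lowest fold of all 43 members, at 59.6 FPKM in plus_Dox and 80.6 FPKM in minus_Dox in the authors' deposited table (log2 fold -0.44, 95% interval -0.76 to -0.12, q = 0.058). It was the 1 member that fell at a q-value of 0.1, where 4.23% of rows fell, and likewise at 0.05 readjusted over rows with at least 1 FPKM (4.76%) or 5 FPKM (4.71%). Slc16a3, the lactate exporter MCT4, stood at 167 FPKM in plus_Dox and 131 FPKM in minus_Dox in the authors' deposited table (log2 fold 0.35, 95% interval -0.31 to 1.02, q = 0.63). Slc16a3 made up 73.7% of the FPKM of the 2 transporters in plus_Dox and 61.9% in minus_Dox, a difference that was not tested. The Slc16a3 row spans 4.07 times the length of the gene in RefSeq, so it can take in other transcripts. Bsg, the chaperone of these transporters at the cell surface and no member, had 311 FPKM in plus_Dox and 241 FPKM in minus_Dox in the authors' deposited table (q = 0.14).

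Pyruvate dehydrogenase kinases switch off pyruvate oxidation, and both members had log2 folds near 0, with wide intervals. Pdk1 had 37.9 FPKM in plus_Dox and 36.6 FPKM in minus_Dox in the authors' deposited table (log2 fold 0.05 with SE 0.32). Pdk3 had 14.5 FPKM in plus_Dox and 14.1 FPKM in minus_Dox in the authors' deposited table (log2 fold 0.04 with SE 0.40). Subunits of the pyruvate dehydrogenase complex had folds on either side of 0, none of them called. Pdha1 and Pdhb, which encode the decarboxylating E1 enzyme, had log2 folds of 0.22 (SE 0.21) and 0.29 (SE 0.16), and Dlat, the acetyl-transferring core, 0.04 (SE 0.51), in the authors' deposited table. Dld, the dehydrogenase subunit shared with oxoglutarate dehydrogenase, had 45.0 FPKM in plus_Dox and 57.2 FPKM in minus_Dox in the authors' deposited table (log2 fold -0.35, 95% interval -0.69 to -0.0036, q = 0.21).

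All 6 pentose phosphate genes were higher in plus_Dox in the deposited fold and relative to the median of all genes (2 of 5 with a value after trend removal), and 2 of the 6 rose, where 8.98% of all rows rose and the median log2 fold of all rows was 0.20. In rows that name 1 gene it was 1 of 5, and after trend removal 0 of 5. Pgls, the lactonase of the oxidative branch, showed the largest fold of the 43 members. Its row had 136 FPKM in plus_Dox and 69.2 FPKM in minus_Dox in the authors' deposited table (1.96-fold, 95% interval 1.52 to 2.53, q = 1.95e-05). That row covers chromosome 8 from 74116075 to 74131835 in mm9 and joins Pgls with its neighbour Fam129c, and the authors' value does not separate the genes. Taldo1, the transaldolase of the non-oxidative branch, rose to 233 FPKM in plus_Dox, against 154 FPKM in minus_Dox, in the authors' deposited table (1.52-fold, 95% interval 1.22 to 1.89, q = 0.0040). Its row covers chromosome 7 from 148578098 to 148588867 in mm9.

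Promoters of the 44 members found in a RefSeq promoter table (250 bases before to 50 after each start, build GRCm38.p6) were searched on both strands for the core of the Tcf/Lef site, CTTTGA. Of the 5 called genes, Pgls and Taldo1 held it, and their windows are shown with the matches to CTTTGA or its reverse complement TCAAAG in capitals.
Pgls, chr8:71591934-71592233, plus strand: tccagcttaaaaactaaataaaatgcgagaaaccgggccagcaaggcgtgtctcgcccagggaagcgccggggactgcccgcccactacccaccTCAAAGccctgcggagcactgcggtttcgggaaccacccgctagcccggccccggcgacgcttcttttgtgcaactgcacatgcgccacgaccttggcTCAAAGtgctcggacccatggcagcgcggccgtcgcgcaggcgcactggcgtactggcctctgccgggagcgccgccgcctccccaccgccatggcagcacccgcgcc
Taldo1, chr7:141391910-141392209, plus strand: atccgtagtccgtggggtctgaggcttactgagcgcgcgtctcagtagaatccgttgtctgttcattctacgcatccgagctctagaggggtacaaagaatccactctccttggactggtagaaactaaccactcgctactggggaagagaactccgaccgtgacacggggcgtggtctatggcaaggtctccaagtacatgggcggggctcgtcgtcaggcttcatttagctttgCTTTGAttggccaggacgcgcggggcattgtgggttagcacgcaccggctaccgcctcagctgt
In the Pgls window the matches begin at positions -156 and -58 relative to the start, and in Taldo1 at -14. The same letters stood in 11 of 44 member genes (25.0%) and in 18.2% of all 27025 genes of the table, so such matches are common. A gene counted if any of its windows held the letters. By window the shares were closer, 17.7% of 62 member windows and 16.0% of all 32851. The median log2 fold was 0.27 for the 10 tested members with the letters and 0.28 for the 31 without. A match is a run of letters and no measured site.

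The other pentose phosphate genes did not pass. Tkt, the transketolase gene, had 240.5 FPKM in plus_Dox and 163 FPKM in minus_Dox in the authors' deposited table (1.47-fold, 95% interval 1.01 to 2.15, q = 0.20), close in size to Taldo1 but with a larger SE of 0.28. The NADPH-yielding dehydrogenases had smaller folds, and none of these differences between genes was tested. G6pdx, the entry enzyme of the pathway, had 47.9 FPKM in plus_Dox and 39.6 FPKM in minus_Dox in the authors' deposited table (log2 fold 0.27, q = 0.55). Pgd had 126 FPKM in plus_Dox and 101 FPKM in minus_Dox in the authors' deposited table (log2 fold 0.32, q = 0.34). Rpia, the isomerase that yields ribose 5-phosphate, had the lowest level, 7.86 FPKM in plus_Dox and 6.82 FPKM in minus_Dox in the authors' deposited table (q = 0.70).

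Of 15 TCA cycle members, 1 rose (6.67%), where 8.98% of all tested rows rose. Mdh2, the mitochondrial malate dehydrogenase, had 297 FPKM in plus_Dox and 210 FPKM in minus_Dox in the authors' deposited table (1.41-fold, 95% interval 1.12 to 1.78, q = 0.032), on chromosome 5 from 136254350 to 136266268 in mm9. Its cytosolic counterpart Mdh1 had 247 FPKM in plus_Dox and 205 FPKM in minus_Dox in the authors' deposited table (log2 fold 0.26, q = 0.51), in a row that spans 342 kb and so can include other transcripts. Cs, citrate synthase at the entry of the cycle, had 73.9 FPKM in plus_Dox and 67.8 FPKM in minus_Dox in the authors' deposited table (log2 fold 0.12, 95% interval -0.19 to 0.44). Aco1, the cytosolic aconitase that also acts as an iron sensor, had 22.6 FPKM in plus_Dox and 19.96 FPKM in minus_Dox in the authors' deposited table (log2 fold 0.18).

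Subunits of single TCA enzymes had unlike fold estimates, and the differences between them were not tested. In the authors' deposited table NAD-dependent isocitrate dehydrogenase had log2 folds of 0.00 for its catalytic subunit gene Idh3a (SE 0.17), 0.38 for Idh3b (SE 0.69) and 0.41 for Idh3g (SE 0.19). Idh3a was at 64.2 FPKM in both groups in the authors' deposited table. For succinate-CoA ligase, the authors' deposited table gives log2 folds of 0.39 for the alpha subunit gene Suclg1 (SE 0.17, q = 0.11), -0.07 for Suclg2 (SE 0.16) and 0.08 for Sucla2 (SE 0.21), the last 2 being its alternative beta subunits. Ogdh and Dlst of oxoglutarate dehydrogenase had a log2 fold of 0.14 each in the authors' deposited table (SE 0.23 and 0.17), set beside the -0.35 of their partner Dld. None of these subunits was called.

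The NADP-dependent isocitrate dehydrogenases had folds on either side of 0 that did not pass. Idh1, the cytosolic form, had 58.7 FPKM in plus_Dox and 67.3 FPKM in minus_Dox in the authors' deposited table (log2 fold -0.20, 95% interval -0.54 to 0.15). Idh2, the mitochondrial form, had 65.9 FPKM in plus_Dox and 48.8 FPKM in minus_Dox in the authors' deposited table (log2 fold 0.43, 95% interval 0.05 to 0.82, q = 0.15). Idh2 held 52.9% of their summed FPKM in plus_Dox and 42.0% in minus_Dox, a difference that was not tested.

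Of 60 tested enzymes of these pathways outside the 46 members, 4 rose (6.67%) and 2 fell (3.33%), near the shares over all rows, 8.98% and 3.22%, and their median log2 fold was 0.21. With the median shift subtracted, 1 was higher (Eno3) and 3 were lower (Pdpr, Pdk4 and Me1), where 3.47% of all rows were higher and 6.1% lower. The rises were in Eno3, the muscle enolase (36.8 FPKM in plus_Dox and 21.6 FPKM in minus_Dox in the authors' deposited table), Brp44l, now named Mpc1, a subunit of the mitochondrial pyruvate carrier (7.94 FPKM in plus_Dox and 4.70 FPKM in minus_Dox), Pck2, the mitochondrial phosphoenolpyruvate carboxykinase, and Sdhb, the iron-sulfur subunit of succinate dehydrogenase. Pdpr, the regulatory subunit of the phosphatase that activates the complex, fell to 2.25 FPKM in plus_Dox, against 3.85 FPKM in minus_Dox, in the authors' deposited table (log2 fold -0.78 with SE 0.20, q = 0.0031). Pdk4, an inhibiting kinase of pyruvate dehydrogenase that was under 1 FPKM in both groups and was named after its value was seen, fell to 0.178 FPKM in plus_Dox, against 0.434 FPKM in minus_Dox, in the authors' deposited table (log2 fold -1.29 with SE 0.37, q = 0.0073). After trend removal these falls were the 2 calls of that list (3.33%), where 0.96% of all rows were lower.

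Hypoxia response genes, many of which are switched on with glycolysis by the factor Hif1a, were at a median log2 fold of -0.04, with 2 rises (Egln2 and Higd1a) and 1 fall (Ero1l) among 22 tested (9.09% and 4.55%, against 8.98% and 3.22% of all rows). With the median shift subtracted, 1 was higher (Egln2) and 4 were lower (Ero1l, Kdm3a, Bnip3 and Hif1a), or 18.2% lower against 6.1% of all rows. After trend removal Ddit4 was the 1 gene called, as lower (4.55%, against 0.96% of all rows), and Ero1l was not (q = 0.42). Hif1a itself had 24.4 FPKM in plus_Dox and 37.9 FPKM in minus_Dox in the authors' deposited table (log2 fold -0.64 with SE 0.29, q = 0.14, and 0.040 with the shift subtracted). The core letters of the hypoxia response element, ACGTG, stood in the promoter windows of 18 of 44 member genes (40.9%) and of 21.8% of all genes of the table. The longer E-box CACGTG, which overlaps ACGTG, stood in 9.09% of member genes and 8.09% of all genes. Tested members with ACGTG had a median log2 fold of 0.27 (16 genes) and those without it 0.28 (25 genes). Among 8 Myc family genes, whose proteins bind the E-box, 1 rose (12.5%, against 8.98% of all rows). It was Mycl1, at 21.8 FPKM in plus_Dox and 13.3 FPKM in minus_Dox in the authors' deposited table (q = 0.0080). That call was lost with the shift subtracted (q = 0.096) and after trend removal (q = 0.75). Mycn, the most abundant of the 8, had 39.4 FPKM in plus_Dox and 45.3 FPKM in minus_Dox in the authors' deposited table (q = 0.58). After trend removal Mycn was the 1 call of the list, as lower (log2 -0.59, q = 0.039), or 12.5% against 0.96% of all rows. Myc had 15.0 FPKM in plus_Dox and 10.2 FPKM in minus_Dox in the authors' deposited table (q = 0.076).

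The members' folds were ordered by the base composition of their transcripts, as those of all genes were. Across the 42 tested members with a known transcript, the log2 fold and the GC content had a Spearman coefficient of 0.69. Across 11596 genes with at least 1 FPKM it was 0.65. With transcript length the coefficients were -0.40 in the members and -0.47 across these genes. Members come from the same libraries and are not independent, so this is a description. The 12 members with a GC content under 48% had a median log2 fold of 0.04, the 16 from 48% to 53% had 0.19, and the 14 at 53% or more had 0.44. Over all genes these medians were -0.13, 0.20 and 0.47. The lowest folds among members, Slc16a1 and Dld, belonged to transcripts of 42.9% and 40.6% GC. The called genes Taldo1, Mdh2 and Pfkm had transcripts of over 53%, and the called gene Ldhb had one of 52.99%.

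**Figure D3:**
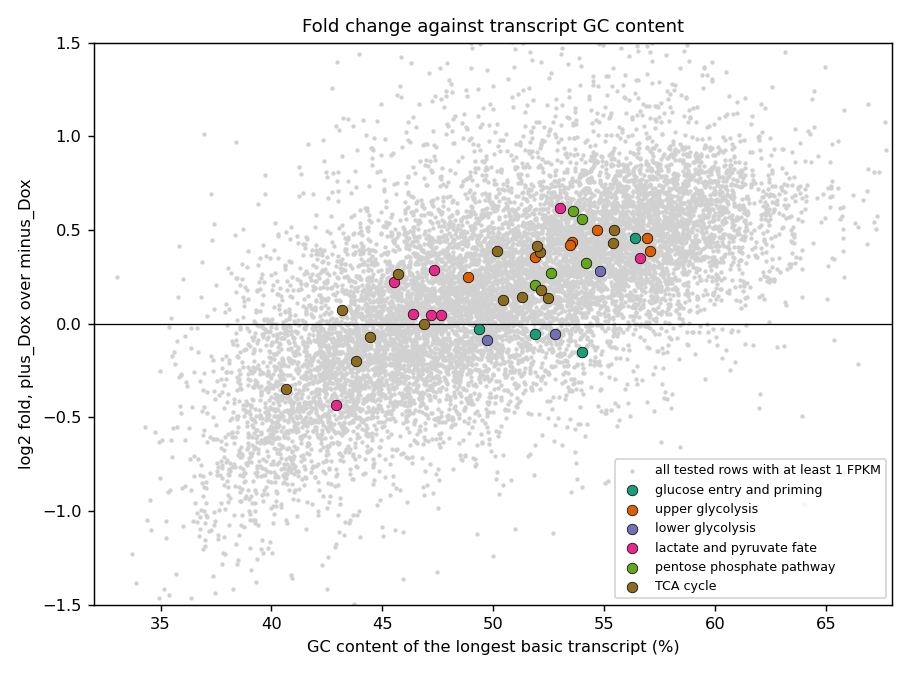
Log2 fold, plus_Dox over minus_Dox, against GC content of the longest transcript, for 42 members coloured by pathway and, in grey, all tested rows with at least 1 FPKM that fall inside the axes. The members lie inside the rising grey cloud, with Slc2a1 the member farthest below 0 at a GC content of over 53%.

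When a smooth trend on GC content and transcript length was subtracted from the folds of the whole table and the test repeated, no member was called in either direction, where 1.22% of rows were higher and 0.96% lower. The median log2 fold of the 42 members was then -0.04. The lowest values were those of Pgam1 (log2 -0.48, q = 0.13), Slc2a1 (-0.46, q = 0.47) and Pgk1 (-0.37, q = 0.53). The highest was Tkt (0.25). The joined row of Pgls has no value there. With the GC content (65.9%) and length of Pgls itself, a step added after the data were examined, it stood at 0.26 (q = 0.91). Lef1 kept a log2 fold of 2.54 under the same removal.

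**Figure D4:**
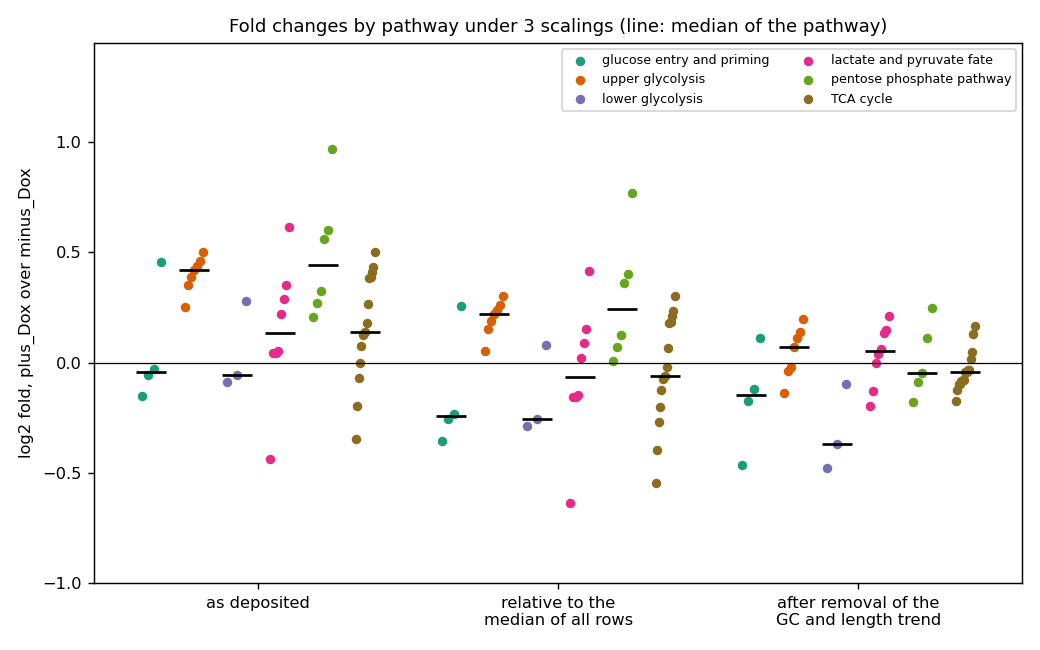
Log2 folds of the tested members by pathway, plus_Dox over minus_Dox, as deposited, relative to the median of all rows and after removal of the GC and length trend. Points are genes and lines are pathway medians. Upper glycolysis and the pentose phosphate pathway sit highest in the first 2 blocks, with medians of 0.42 and 0.44 as deposited, and after trend removal the medians of the 6 pathways lie between -0.37 and 0.07.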

How the data were processed

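The deposited file is 1 table in the layout of Cuffdiff's gene-level output, with values per group and 0 columns of single libraries. Per the file headers it holds the authors' FPKM for plus_Dox and minus_Dox, a log2 fold, the deposited test statistic (a score with no fixed range) and the authors' p-value and q-value. Build mm9 and the tools Bowtie, TopHat2 2.0.8, Cuffdiff, Cufflinks 2.0.2 and Picard stand in the submitters' processing notes, without roles. The annotation used is not given in the sources here. Rows were taken by splitting gene names at commas. The members and gene lists were chosen with earlier results of these data known. All members are named. Of other lists, up to 8 called genes that reached 1 FPKM in either group could be named. Pdk4, under 1 FPKM in both groups, and genes without a call as deposited (Bsg, Me1, Hif1a, Kdm3a, Bnip3, Ddit4, Myc, Mycn, Pou5f1, Pdgfra, Pdgfrb, Dcn, Col1a1, Col1a2, Col3a1, Pkm2) were named after their values were seen.

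The SE is the size of the log2 fold over that of the statistic. For 17830 rows with a finite fold, the p-value was checked against the statistic as a normal deviate, two-sided (0 differed by over 1e-05), and the log2 fold against the FPKM ratio (largest difference 0.0014). A changed fold was tested against the same SE with Benjamini-Hochberg adjustment over all rows (Python 3.11.15, scipy 1.17.1, numpy 2.4.6, pandas 2.3.3, figures with matplotlib 3.10.9). The trend was a least-squares fit of cubic splines, with 6 knots each, in GC content and in log2 of transcript length over 11596 rows, with the longest basic transcript per symbol of GENCODE vM21. The fit was tried on simulated data with a linear trend and changes larger than any member's fold. Recovery of changes of the members' size was not tested. Start positions were raised by 1, since row spans then equalled RefSeq gene lengths for 7 members, against 2 as given. In 10 members (Pfkm, Aldoa, Tpi1, Slc16a3, Pdha1, G6pdx, Pgls, Idh3b, Sucla2 and Mdh1) the row spans over 1.5 times the RefSeq gene. Their values can take in other transcripts. Depth is unknown, so no counting interval was computed.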

Additional observations from a re-analysis of the deposited data

How the results depend on the processing

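The number of rises among the members was 5 at a q-value of 0.05, 2 at 0.01, 3 with a minimum of 1.5-fold, 1 after subtraction of the median shift and 0 after trend removal. With 0.1 as the threshold, minima of 1 and 5 FPKM, or rows that name 1 gene it stayed within 1.5 times. The number of falls was 0, and 1 at a q-value of 0.1 or with at least 1 or 5 FPKM (Slc16a1, readjusted q = 0.043 and 0.038), and 2 after subtraction of the shift (Slc16a1, log2 -0.64, q = 0.0025, and Dld, log2 -0.55, q = 0.025). The median log2 fold of the members, 0.26, was 0.064 after the shift and -0.040 after trend removal, and moved by at most 0.1 with pseudocounts of 1 and 0.1, the FPKM minima or single-gene rows. Lef1 kept its call and direction under every alternative run.

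Subtraction of the shift, which lowers every fold by 0.20, turned 9 uncalled members below 0, namely Pdk1 (-0.15), Pdk3 (-0.16), Dlat (-0.16), Cs (-0.076), Aco1 (-0.020), Idh3a (-0.20), Ogdh (-0.063), Dlst (-0.059) and Sucla2 (-0.12). Trend removal turned 18 members, namely Pfkl (-0.017), Aldoa (-0.14), Tpi1 (-0.036), Eno2 (-0.096), Pdk3 (-0.13), G6pdx (-0.048), Pgd (-0.089), Rpia (-0.18), Cs (-0.082), Aco1 (-0.043), Idh2 (-0.078), Idh3a (-0.097), Idh3b (-0.033), Idh3g (-0.034), Ogdh (-0.079), Dlst (-0.12), Suclg2 (0.016) and Mdh2 (-0.044), of which only Mdh2 had been called. The cause of the trend was not tested. Pfkm, Ldhb, Mdh2 and Taldo1 kept their call under neither of these 2 scalings. No paired analysis was possible because the table holds no values of single libraries, and for the same reason no library could be left out and no limma fit made. Depth limits cannot be given, since group FPKM values keep no counts.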
